A study of Mus musculus with 4 samples.

Results

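Cell division genes are described here as 31 genes chosen by name and measured in single cells of mouse trachea, out of 33697 features in the count tables. Of these, 21 act in mitosis and the approach to it, and 8 act in DNA synthesis (S phase). Stmn1 and Hmgb2, which many non-dividing cells also use, make up the remaining 2 and were kept apart. All 31 were found in each table under their symbols. The choice was made by name, with earlier results of these data known.

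The study asked where basal cells of the trachea are made and how they differ by region. The 4 single-cell RNA libraries came from dorsal or ventral trachea of control or Ctnnb1 knockout mice, with 1 library per combination. Mice of all 4 groups carried P63-CreER, Ki67-lsl-Dre and Rosa26-rsr-GFP, and all received tamoxifen 10 days before collection. Controls were Ctnnb1-fl/+, so they also had 1 floxed allele, and knockouts were Ctnnb1-fl/fl. P63-CreER drives a tamoxifen-dependent Cre in cells that express P63, which among airway cells are mainly basal cells. By the allele names, Cre switches on a Dre recombinase at Ki67, and Dre then switches on GFP at Rosa26, so GFP marks cells that passed through a Ki67-expressing state and their descendants. One of the members, Mki67, is the gene that carries the Dre allele in every group, and the effect of that allele on its RNA was not tested. The sources used here do not state age, sex or how many mice were pooled in a library. With 1 library per group no comparison between groups has replicates and no test was run, so every difference lies between libraries. Each interval given is a 95% interval that covers counting error only. Cells are not replicates.

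The libraries held 6744 to 13962 barcodes and 144851737 to 286711618 unique molecular identifiers (UMIs, 1 per captured RNA molecule), and 6032 to 12544 cells remained after filtering. Each pair of libraries shared 15 to 39 cell barcodes, at most 0.416% of the smaller library. Basal-gated cells (Trp63 and Krt5) numbered 1981 in control dorsal, 1152 in control ventral, 1039 in knockout dorsal and 741 in knockout ventral trachea, and values below follow this order unless stated. All 5 basal markers outside the gate were detected in these cells in each library, with a summed level of 4738 to 5643 CPM (UMIs per 1000000 UMIs of the class). Summed T cell markers stood at 1.15 to 2.66 CPM and macrophage markers at 11.7 to 20.1 CPM. Secretory markers outside the gates summed higher than the basal ones in each library, and hillock markers were also present (values below). The class thus was not free of RNA typical of other epithelial cells. The targeted gene Ctnnb1 was at 284, 285, 207 and 229 CPM, a knockout level of 0.730 (0.705 to 0.755) of control dorsally and 0.806 (0.776 to 0.837) ventrally. In fibroblasts, which do not normally express P63, the same ratios were 0.776 and 0.856. The labels do not say which exons are deleted, and reads at the 5′ end need not fall in them, so Ctnnb1 RNA is a weak check of the labels.

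A cell that divides first copies its DNA with a replication machinery of loaded helicases, a sliding clamp and enzymes that supply nucleotides. It then enters mitosis under cyclin B and Cdk1, attaches chromosomes to the spindle at kinetochores, and leaves mitosis when the anaphase-promoting complex marks cyclins and securin for destruction. Genes of the first kind are switched on mainly by E2F factors late in G1. Genes of the second kind are held down early in the cycle by the DREAM complex and switched on in G2 by its MuvB core with B-Myb and FoxM1, through a short element called the cell cycle genes homology region (CHR), often beside CCAAT boxes bound by NF-Y. In the airway, basal cells are the main stem cells and give rise to secretory and ciliated cells, and hillocks are patches of Krt13 and Krt4 expressing cells known for fast turnover.

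Promoter motifs differed in part between mitotic and S-phase members, so 4 promoters are shown. They are RefSeq sequences on build GRCm38.p6, from 250 bases before the start of transcription up to the start, while the counts were made on another build (GRCm39). Ube2c and Top2a are the mitotic members with most UMIs in basal-gated cells among those with an entry, and Pcna is that S-phase member. Mcm6 was added after its motifs were seen. Ube2c lies at chr2:164769679-164769928 on the plus strand, Top2a at chr11:99024190-99024439 on the minus strand, Pcna at chr2:132253181-132253430 on the minus strand and Mcm6 at chr1:128359706-128359955 on the minus strand. Each is written 5′ to 3′ on the strand of its gene. Capitals mark matches on either strand to TTTGAA (CHR), CCAAT, or TTTNNCGC (the E2F consensus, where each N had to be C or G).
Ube2c: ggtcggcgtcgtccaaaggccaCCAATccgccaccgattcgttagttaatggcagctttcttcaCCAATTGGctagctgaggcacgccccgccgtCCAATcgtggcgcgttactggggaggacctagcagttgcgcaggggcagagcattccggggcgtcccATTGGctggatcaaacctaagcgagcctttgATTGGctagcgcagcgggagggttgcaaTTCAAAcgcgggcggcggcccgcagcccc
Top2a: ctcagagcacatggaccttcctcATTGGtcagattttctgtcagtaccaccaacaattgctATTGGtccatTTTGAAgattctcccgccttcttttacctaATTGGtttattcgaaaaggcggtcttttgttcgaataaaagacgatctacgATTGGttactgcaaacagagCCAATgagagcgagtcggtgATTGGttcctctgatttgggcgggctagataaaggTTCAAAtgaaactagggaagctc
Pcna: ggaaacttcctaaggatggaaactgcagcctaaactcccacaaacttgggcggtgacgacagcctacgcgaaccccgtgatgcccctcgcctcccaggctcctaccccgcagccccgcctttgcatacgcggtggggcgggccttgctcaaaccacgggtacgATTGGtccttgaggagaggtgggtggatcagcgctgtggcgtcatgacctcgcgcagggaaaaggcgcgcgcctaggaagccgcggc
Mcm6: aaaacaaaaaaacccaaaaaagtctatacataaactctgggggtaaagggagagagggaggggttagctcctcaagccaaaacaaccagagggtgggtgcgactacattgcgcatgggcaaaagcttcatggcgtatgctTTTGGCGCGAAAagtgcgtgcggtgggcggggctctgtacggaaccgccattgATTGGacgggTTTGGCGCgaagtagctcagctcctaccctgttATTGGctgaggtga
In Ube2c the CHR starts 29 bases before the transcription start and in Top2a the nearest CHR starts 23 bases before it. In Ube2c 2 of the 6 CCAAT matches overlap, since CCAATTGG reads as CCAAT on both strands. Pcna held 1 CCAAT match and neither of the other motifs, and in Mcm6 2 of the 3 E2F matches overlap as TTTGGCGCGAAA.

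Promoter entries were matched for 26 of the 31 members, and Ccna2, Aurkb, Tpx2, Spc24 and Stmn1 had none. A CHR was present in 12 of 17 mitotic promoters and in 0 of 8 S-phase promoters, against 17.9% of all 32851 windows of the same length (250 bases before to 50 after the start). Within 50 bases of the start on either side it was present in 11 of 17, against 4.94% of all windows. Both a CHR and a CCAAT box were found in 11 of 17 mitotic and 0 of 8 S-phase promoters, against 6.95% of all windows. The E2F consensus was found in 4 of 8 S-phase promoters (Mcm5, Mcm6, Pclaf and Hells) and in 1 of 17 mitotic ones (Cdk1), against 2.26% of all windows. These are matches of letters only, and their part in the levels below was not tested.

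In basal-gated cells the mitotic members were highest in control dorsal trachea and lowest in ventral trachea of either genotype. Their summed level was 344 (338 to 350), 83.9 (80.6 to 87.4), 178 (173 to 184) and 78.4 (74.3 to 82.5) CPM. Control dorsal cells thus exceeded control ventral cells 4.10-fold (3.93 to 4.29), and knockout dorsal cells exceeded knockout ventral cells 2.27-fold (2.14 to 2.42). For 21 of 21 mitotic members both dorsal libraries lay above both ventral ones. The S-phase members did not share this order: their sums were 176, 163, 157 and 166 CPM, with dorsal over ventral at 1.08 (1.04 to 1.12) for controls and at 0.947 (0.903 to 0.994) for knockouts. The knockout value was above 1 with median-ratio scaling (1.05) and with 3 other gates (1.006 to 1.16), and its interval included 1 without the cell with most mitotic UMIs of each library (0.995, 0.947 to 1.04).

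Counted gene by gene, 21 of 31 members were at least 2-fold higher in control dorsal than in control ventral basal-gated cells, against 4.14% of the 15137 genes tested, and 0 were 2-fold lower, against 9.95%. They were 20 of the 21 mitotic members and, of the S-phase members, Pclaf. The mitotic members had a median log2 ratio of 2.10, the S-phase members 0.13 and all genes -0.02. In knockouts 11 of 30 members tested were 2-fold higher dorsally (background 3.53%), all of them mitotic, and 0 were lower (background 9.18%), with a median log2 ratio of 1.07 for the mitotic members and -0.15 for all genes. Bub1 had too few UMIs in that comparison. A wider list chosen in the same way held 40 other mitotic genes, of which 26 were 2-fold higher dorsally in controls and 6 of 39 in knockouts. Of 28 other S-phase genes, 4 were higher and 1 lower in controls, and 0 higher and 3 lower of 26 in knockouts. Of the other mitotic genes with most UMIs, Tubb4b had dorsal over ventral ratios of 1.05 in controls and 1.18 in knockouts, Pttg1 1.02 and 1.09, and Cks2 1.27 and 1.08. These 3 thus differed little between regions. Of the other S-phase genes with most UMIs, Nasp was at 154, 165, 172 and 183 CPM, Slbp at 109, 148, 133 and 160.1 CPM, and Pold3 at 25.3, 21.6, 23.3 and 23.2 CPM.

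**Figure D1:**
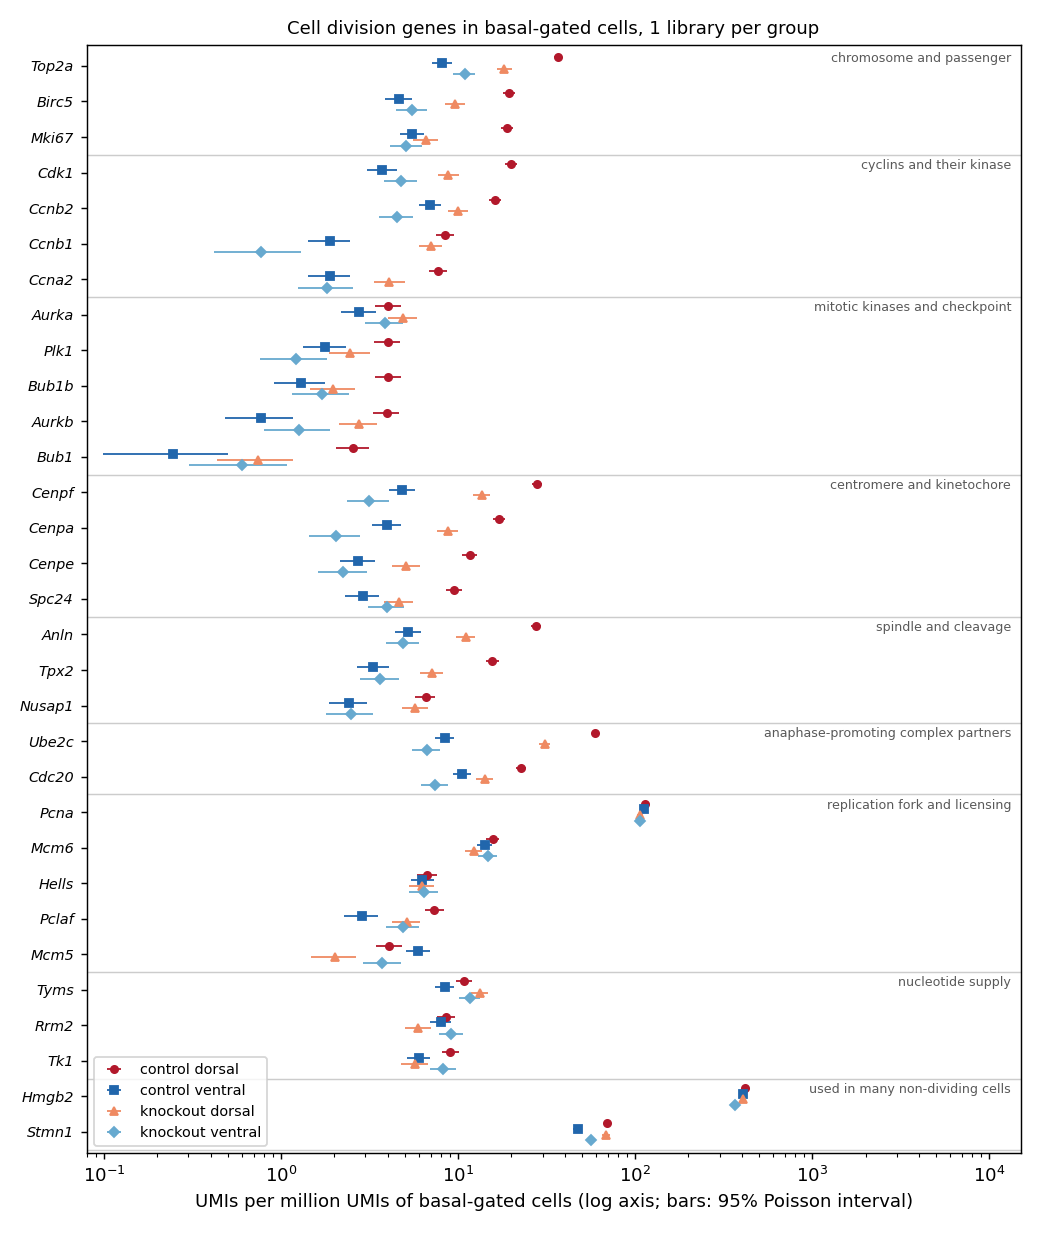
Level in CPM of each of the 31 members in basal-gated cells (log axis), grouped by role, with 1 point per library and its 95% Poisson interval. Control dorsal is the highest library for 20 of the 21 mitotic members, while Pcna and Hmgb2 lie close together in all 4 libraries.

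Among genes of chromosome structure, Top2a, the topoisomerase that untangles sister DNA, was at 36.8, 8.13, 18.3 and 10.9 CPM. Control dorsal was the highest library and control ventral the lowest, 4.52-fold (3.93 to 5.22) apart. Birc5 (survivin, a subunit of the chromosomal passenger complex) was at 19.4, 4.64, 9.59 and 5.50 CPM, with dorsal over ventral ratios of 4.19 in controls and 1.74 in knockouts. Mki67, which coats mitotic chromosomes and is the locus of the Dre allele, was at 19.0, 5.52, 6.56 and 5.11 CPM. Its knockout libraries and control ventral lay close together, and the knockout dorsal over ventral ratio of 1.28 (0.987 to 1.67) did not exclude 1.

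The cyclins and their kinase drive entry into mitosis. Cdk1, the kinase, was at 19.9, 3.74, 8.81 and 4.78 CPM, 5.33-fold (4.34 to 6.59) higher dorsally in controls. Ccnb2, a B-type cyclin, was at 16.2, 6.98, 10.0 and 4.51 CPM, a dorsal excess of 2.32-fold in controls and 2.22-fold in knockouts. Ccnb1, its close relative, had the largest dorsal excess of any mitotic member in knockouts, 9.11-fold (5.28 to 17.0), from 171 UMIs against 14. It was also the 1 member at least 2-fold lower in knockout than in control ventral cells.

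Mitotic kinases and the checkpoint held the exception. Aurka, the kinase of spindle poles, was at 4.03, 2.76, 4.88 and 3.85 CPM, and it was the mitotic member whose dorsal excess in controls was under 2-fold, at 1.46 (1.103 to 1.95). It was also the mitotic member that was higher in knockout than in control dorsal cells, at 1.21 (0.941 to 1.55). Plk1, the polo-like kinase, was at 4.00, 1.78, 2.46 and 1.21 CPM, with dorsal over ventral ratios of 2.25 and 2.03. The checkpoint kinase Bub1 had the highest control ratio of all, 10.4 (4.86 to 26.6), but from 7 UMIs in control ventral cells.

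At the kinetochore, Cenpf was at 28.0, 4.82, 13.6 and 3.13 CPM, and Cenpa, the histone H3 variant that marks centromeres, at 17.0, 3.98, 8.77 and 2.03 CPM. The dorsal excess of both was over 4-fold in each genotype, at 5.81 and 4.34 for Cenpf and 4.27 and 4.31 for Cenpa. For Spc24, a subunit of the Ndc80 complex, it was 3.27 in controls and 1.17 (0.863 to 1.60) in knockouts.

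Of the spindle and cleavage genes, Anln (anillin, of the cleavage furrow) was at 27.6, 5.24, 11.0 and 4.89 CPM, with dorsal over ventral ratios of 5.28 and 2.25. Tpx2, a spindle assembly factor that activates Aurora A, was at 15.6, 3.32, 7.13 and 3.63 CPM, with ratios of 4.71 and 1.97. The partners of the anaphase-promoting complex differed from each other. Ube2c, its ubiquitin-conjugating enzyme, was at 59.5, 8.41, 30.9 and 6.65 CPM, so its dorsal level was 7.07 times (6.19 to 8.12) the ventral one in controls. In knockouts it was 4.65 times (3.84 to 5.68). Cdc20, its mitotic activator, was at 22.7, 10.5, 14.1 and 7.36 CPM, with ratios of 2.16 and 1.92. The 12 mitotic members with a CHR match had control ratios from 1.46 (Aurka) to 7.07 (Ube2c) and the 5 without a match from 2.72 (Nusap1) to 10.4 (Bub1), so the ranges overlapped.

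The S-phase members were near-flat by comparison. Pcna, the sliding clamp, was at 114, 112, 106 and 107 CPM, and both dorsal over ventral intervals included 1 (1.02, 0.971 to 1.07, and 0.996, 0.939 to 1.06). It held 64.5% to 68.4% of the S-phase sum. The 7 others summed to 62.3, 51.6, 50.5 and 58.9 CPM, so dorsal over ventral was 1.21 (1.13 to 1.29) for controls and 0.858 (0.790 to 0.933) for knockouts. Mcm6, a helicase subunit, was at 15.7, 14.1, 12.3 and 14.7 CPM. Mcm5, another subunit of the same helicase, lay on the other side in controls, at 4.09, 5.94, 2.01 and 3.74 CPM, a ratio of 0.688 (0.548 to 0.864). Of the nucleotide enzymes, Tyms (thymidylate synthase) was at 10.8, 8.41, 13.2 and 11.6 CPM, and Rrm2 (a ribonucleotide reductase subunit) at 8.54, 7.96, 5.94 and 9.18 CPM. Pclaf, a PCNA-binding factor, was the S-phase member with a 2-fold dorsal excess in controls, at 7.36 against 2.86 CPM (2.57, 1.999 to 3.34), with 1.05 in knockouts. Hmgb2, an abundant DNA-bending protein, was at 418, 406, 406 and 367 CPM, and Stmn1, a microtubule-destabilising protein, at 69.1, 47.3, 68.3 and 56.4 CPM.

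Markers of other cell types moved with the region in the same cells. The 5 further hillock markers summed to 3222, 1140, 2356 and 804 CPM in basal-gated cells, with Cnfn at 0 in control ventral cells. The 5 further ciliated markers summed to 359, 31.4, 321 and 29.0 CPM. The 5 further secretory markers went the other way, at 27418, 37985, 36610 and 44808 CPM. Their part in the dorsal excess of the mitotic members was not tested.

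A small number of cells carried most of these UMIs. Basal-gated cells with 10 or more mitotic UMIs numbered 69 of 1981, 17 of 1152, 15 of 1039 and 8 of 741, and held 91.7%, 65.9%, 86.9% and 67.2% of the mitotic UMIs. The highest single cells held 434, 501, 634 and 316. Without that 1 cell in each library, a choice made after the data were seen, the sums were 332, 66.6, 153 and 61.4 CPM. Dorsal over ventral was then 4.99 for controls and 2.48 for knockouts. The intervals of the sums count UMIs as independent and do not cover the small number of such cells, so they are narrower than the spread between cells would give.

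**Figure D2:**
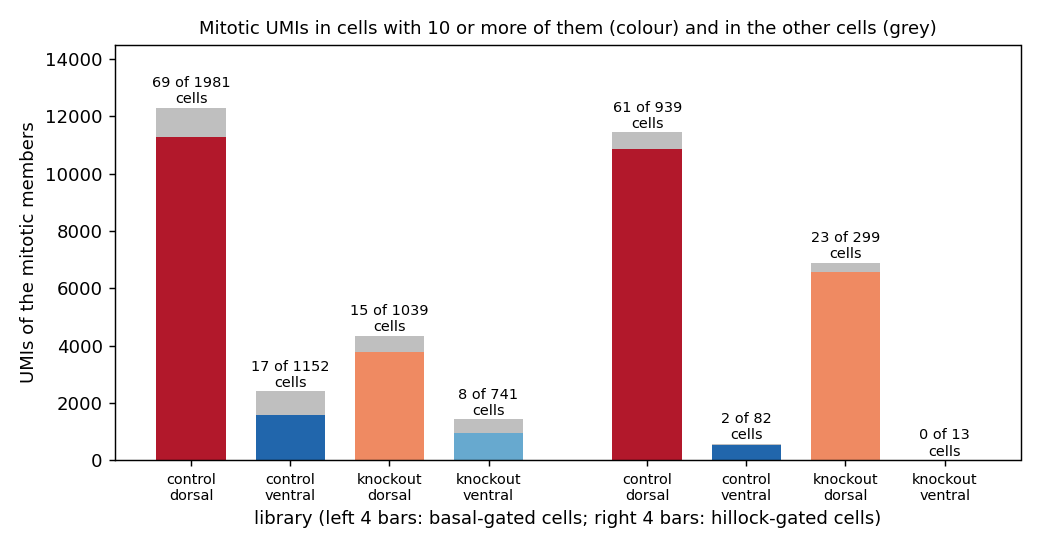
UMIs of the 21 mitotic members in basal-gated cells (left) and hillock-gated cells (right) of each library, split into cells with 10 or more of them (colour) and the rest (grey). The numbers above the bars give the cells with 10 or more out of all cells of the class, from 69 of 1981 in control dorsal to 8 of 741 in knockout ventral basal-gated cells.

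Counting cells instead of UMIs, each cell was thinned to 8000 UMIs, since depth differed (medians of 15526, 22820, 20227 and 23803 UMIs). This dropped 81, 12, 17 and 13 cells with fewer UMIs. A cell was counted as positive with UMIs of at least 2 mitotic members. The positive share of basal-gated cells was 6.0% (114 of 1900, 4.97 to 7.16), 3.33% (38 of 1140, 2.37 to 4.55), 3.13% (32 of 1022, 2.15 to 4.39) and 2.34% (17 of 728, 1.37 to 3.71). Ciliated-gated cells, taken as a class that does not divide, gave 2.66%, 3.14%, 1.94% and 4.32% by the same count. Their median depths were 22353, 27532, 33176 and 37346 UMIs. In control dorsal trachea 6 of these cells held 354 of the 815 mitotic UMIs of the class, the highest of them 156. The class thus held some cells rich in mitotic RNA and its shares are not a purely technical background. In control dorsal trachea the basal interval lay above that of ciliated-gated cells (1.66 to 4.04). In the other 3 libraries the intervals of the 2 classes overlapped. The knockout ventral share was below its ciliated share at this threshold. Dorsal minus ventral was 2.67 percentage points (1.11 to 4.13) for controls. For knockouts it was 0.796 points (-0.848 to 2.32). Without thinning the shares were 11.0%, 14.5%, 9.72% and 10.5%, which reversed the order of the control libraries, the control ventral cells being deeper. For knockouts dorsal minus ventral was then -0.805 points, and -0.328 points with cells thinned to 4000 UMIs. The sign of the knockout difference thus depended on the setting.

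Stricter counts lowered the ciliated background. With at least 3 mitotic members the basal shares were 4.11%, 1.40%, 1.17% and 0.824%, against 1.27%, 0.629%, 0% and 0.719% of ciliated-gated cells. With at least 5 they were 3.42% (2.65 to 4.34), 0.789% (0.362 to 1.49), 1.08% (0.538 to 1.92) and 0.549% (0.1499 to 1.40), against 0.634%, 0.314%, 0% and 0% of ciliated-gated cells. The counts of 0 of 103 and 0 of 139 ciliated-gated cells in the knockouts allow shares of up to 2.91% and 2.16% (3 counts of the total). At least 2 S-phase members were found in 17.7%, 16.3%, 14.2% and 16.8% of basal-gated cells, and in 8.11%, 8.49%, 9.71% and 13.7% of ciliated-gated cells. Of the 114 positive control dorsal cells, 56 also had at least 2 S-phase members, as did 13 of 38, 10 of 32 and 10 of 17 in the other libraries.

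Single members were detected above the ciliated share in most but not all cases. In control dorsal basal-gated cells 21 of 21 mitotic members were found in a larger share of cells than in ciliated-gated cells, from 1.21% (Bub1) to 7.05% (Anln). The number was 15 of 21 in control ventral, 20 of 21 in knockout dorsal and 13 of 21 in knockout ventral cells. Top2a was at or below the ciliated share in the last 3 libraries, at 2.89%, 2.84% and 3.43% against 7.23%, 5.83% and 4.32%. Mcm6 was at or below it in all 4.

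**Figure D3:**
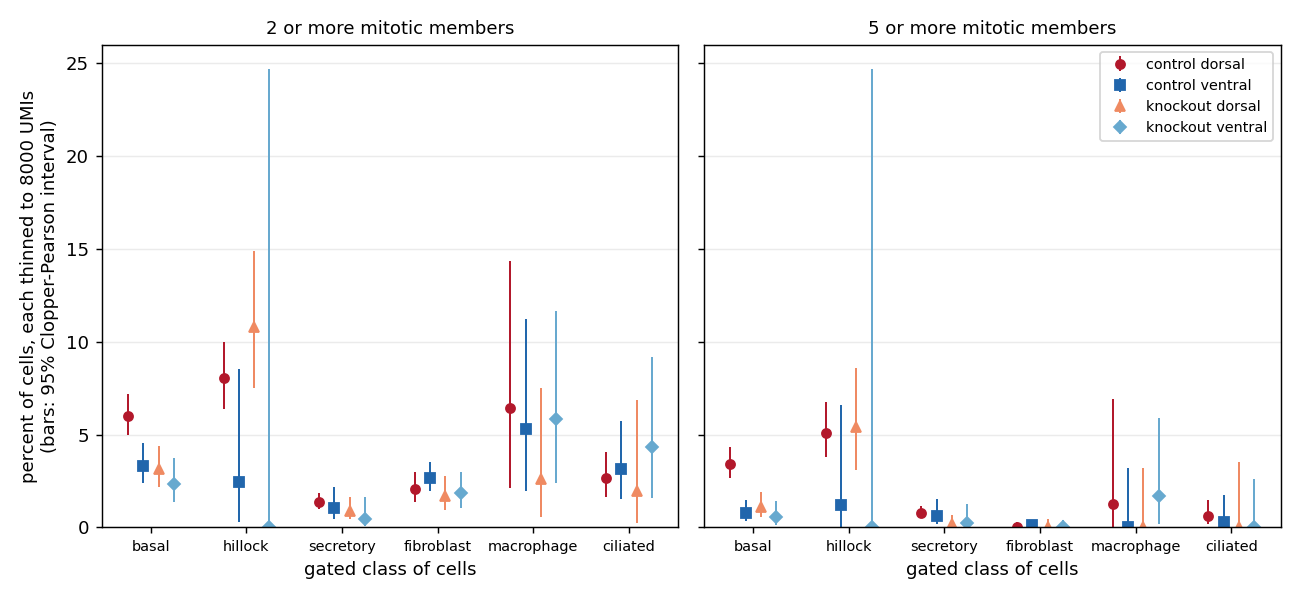
Percent of cells, thinned to 8000 UMIs, with UMIs of at least 2 (left) or at least 5 (right) mitotic members, by gated class and library, with 95% Clopper-Pearson intervals. Control dorsal basal-gated cells stand at 6.0% and 3.42%. In the left panel hillock-gated cells of the dorsal libraries stand at 8.03% (control) and 10.8% (knockout). Macrophage-gated cells reach 6.41% there with wide intervals, and Cenpa alone was found in 26.9% of control dorsal macrophage-gated cells.

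Comparing genotypes in dorsal basal-gated cells, the mitotic sum in knockouts was 0.518 (0.4998 to 0.536) of control. Without the cell with most mitotic UMIs in each library it was 0.459, with 14 members 2-fold lower. This comparison shares the control dorsal library with the regional one above. Of 31 members 12 were at least 2-fold lower, against 7.07% of 14675 genes, and 0 were 2-fold higher, against 4.2%. The 12 were 11 mitotic members and Mcm5. The median log2 ratio was -1.01 for mitotic members, -0.44 for S-phase members and -0.12 for all genes. The lowest ratios were those of Bub1 (0.290, 0.164 to 0.484), Mki67 (0.346, 0.289 to 0.411) and Anln (0.399, 0.347 to 0.457), while Ube2c was at 0.520 and Cdc20 at 0.623. Nusap1, a spindle microtubule binder (0.876), and Ccnb1 (0.829) stayed nearest to control on the lower side. The share of positive cells differed by -2.87 percentage points (-4.34 to -1.28). Of the 40 other mitotic genes 11 were 2-fold lower and 0 higher, and of the 28 other S-phase genes 5 and 0.

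The size of that genotype difference depended on where the basal gate ended. Basal-gated cells excluded cells that also carried Krt13 and Krt4. When such cells stayed in the basal class, a choice made after the data were seen, the mitotic sums became 430, 82.6, 342 and 78.3 CPM. The dorsal knockout ratio was then 0.796 in place of 0.518, and 0 members were 2-fold lower in place of 12. With gates read on thinned cells it was 0.889. The dorsal over ventral excess stayed above 2-fold under each of these gates, at 5.20 and 2.91 in controls and 4.37 and 3.20 in knockouts. With median-ratio scaling in place of total UMIs, which moves dorsal knockout over control by -0.13 on the log2 scale, the ratio was 0.565 and 6 members were 2-fold lower.

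In ventral basal-gated cells the genotypes lay close together, with a mitotic ratio of 0.934 (0.874 to 0.997) and an S-phase ratio of 1.01 (0.969 to 1.06). Of 30 members tested 1 was 2-fold lower, Ccnb1 at 0.408 (0.209 to 0.745), against 2.51% of 14759 genes, and 0 were higher, against 1.1%. Without the cell with most mitotic UMIs in each library 0 of 29 were past 2-fold. The mitotic members split, 10 above and 11 below 1. Cenpa (0.511, 0.343 to 0.746) and Ccnb2 (0.645, 0.493 to 0.838) were among the lower ones and Top2a (1.34, 1.101 to 1.62) among the higher. The positive shares differed by -0.998 percentage points (-2.49 to 0.641). Whether the genotype difference itself differed between dorsal and ventral trachea was not tested.

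**Figure D4:**
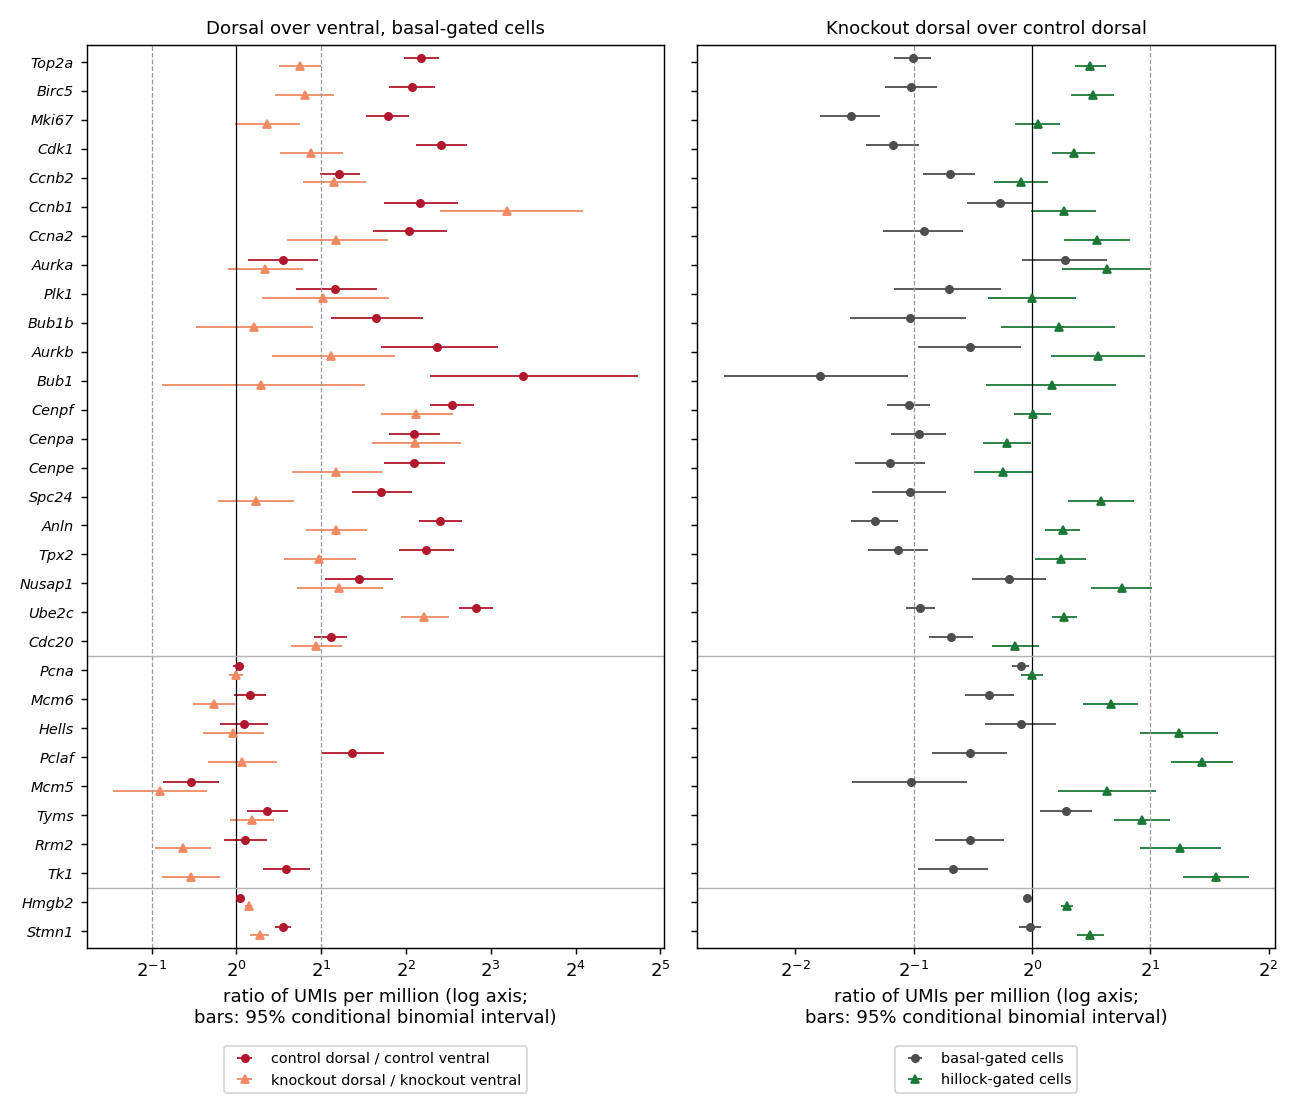
Ratio of CPM for each member (log axis) with 95% conditional binomial intervals; left, dorsal over ventral basal-gated cells in controls and knockouts; right, knockout dorsal over control dorsal in basal-gated and hillock-gated cells. Dashed lines mark 2-fold either way, and horizontal lines part the 21 mitotic members, the 8 S-phase members and the last 2. In the right panel the hillock points lie to the right of the basal point for 31 of 31 members.

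Hillock-gated cells (at least 2 UMIs each of Krt13 and Krt4) were nearly all dorsal, at 939 and 299 cells against 82 and 13 in ventral libraries. This gate was taken before the secretory one, and much Scgb1a1 RNA lay in the class. Its cells with fewer than 2 mitotic members had Scgb1a1 at 27647, 29186, 65605 and 49638 CPM. Krt13 was there at 1591, 418, 656 and 105 CPM. With 2 or more mitotic members Scgb1a1 was at 7022 (control dorsal) and 5384 CPM (knockout dorsal). Mitotic sums of hillock-gated cells were 369 (362 to 375), 134 (123 to 145), 434 (423 to 444) and 21.5 (12.3 to 34.8) CPM. The last value rests on 16 UMIs in 13 cells. In control ventral trachea 1 cell held 509 of the 579 UMIs, and without it the level was 16.4 CPM. They were 7.49% of control dorsal cells and held 31.4% of its mitotic UMIs, and 4.96% and 48.8% in knockout dorsal trachea. As in the basal class, 61, 2, 23 and 0 cells had 10 or more mitotic UMIs, and in the dorsal libraries they held 94.8% and 95.4% of the total.

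Within the dorsal hillock class taken whole, the mitotic ratio of knockout over control was 1.18 (1.14 to 1.21), but by summed UMIs its 2 sorts of cells went opposite ways. In cells that still had the basal markers Trp63 and Krt5 it was 1.09 (1.06 to 1.13), and in the others 0.497 (0.458 to 0.538). For S-phase members the same ratios were 1.73 (1.63 to 1.85) and 0.796 (0.734 to 0.862). Counting cells of at least 8000 UMIs, those with basal markers were 312 of 921 in control and 153 of 297 in knockout dorsal trachea. The values of the whole class thus also carry this difference in makeup by gate. Both markers were read before thinning, at class median depths of 28533 and 45255 UMIs. The part of depth in this difference was not tested. The whole class had 17 of 21 members above 1 and 0 past 2-fold in either direction (background 4.35% higher and 4.86% lower of 13687 genes). Top2a was at 36.5 CPM in control and 51.5 CPM in knockout cells (1.41, 1.29 to 1.54), and Ube2c at 64.0 and 77.4 CPM (1.21, 1.12 to 1.30). Cenpa (0.865) and Cenpe, a kinesin that moves chromosomes (0.846), were among the 4 below 1. Its S-phase ratio was 1.38 (1.32 to 1.45), and 4 of 8 S-phase members were at least 2-fold higher. These were Tk1 (thymidine kinase, 2.93, 2.42 to 3.56), Pclaf (2.71, 2.26 to 3.25), Rrm2 (2.38, 1.88 to 3.02) and the chromatin remodeller Hells (2.36, 1.88 to 2.97). Pcna, at 90.8 and 90.9 CPM, was level. Of the other S-phase genes 10 of 28 were 2-fold higher, Mcm2 and Mcm3 among them, and of the other mitotic genes 1 of 40, Ttk. At least 2 S-phase members were found in 11.3% of control and 19.9% of knockout dorsal hillock cells, a difference of 8.57 points (3.88 to 13.8), while the mitotic positive shares of 8.03% and 10.8% differed by 2.74 points (-0.862 to 7.08). Median depth was 28533 and 45255 UMIs before thinning.

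Within each dorsal library, the hillock and basal classes could be set side by side. In control dorsal trachea their mitotic levels were nearly equal, hillock over basal 1.07 (1.04 to 1.099), Bub1b being the lowest member and Plk1 the highest, at 1.49. In knockout dorsal trachea the ratio was 2.43 (2.34 to 2.53), and 21 of 21 mitotic members were higher in hillock cells, from 1.37-fold (Cdc20) to 3.92-fold (Bub1). The hillock gate was taken first, so cells with markers of both classes counted as hillock. Hillock cells without basal markers were below basal-gated cells in both libraries. Their mitotic sums were 175 against 344 CPM in control and 87.1 against 178 CPM in knockout dorsal trachea. For S-phase members hillock over basal was 0.777 (0.747 to 0.808) in control dorsal trachea. In knockout dorsal trachea it was 1.205 (1.15 to 1.26).

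The dorsal hillock cells with basal markers held most of the mitotic RNA. In control dorsal trachea their mitotic sum was 748 (732 to 765) CPM against 175 (170 to 181) in the other hillock cells, and in knockout dorsal trachea 818 (798 to 839) against 87.1 (80.9 to 93.7). Of the last value's 728 UMIs 460 came from 1 cell, and without it the level was 33.0 CPM. The positive shares were 17.0% (53 of 312, 13.0 to 21.6) against 3.45% (21 of 609) in controls, and 16.3% (25 of 153, 10.9 to 23.2) against 4.86% (7 of 144) in knockouts. S-phase sums differed less, at 169 against 120 CPM in controls and 293 against 95.7 CPM in knockouts. Ventral libraries held 23 and 2 such cells, too few to compare.

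**Figure D5:**
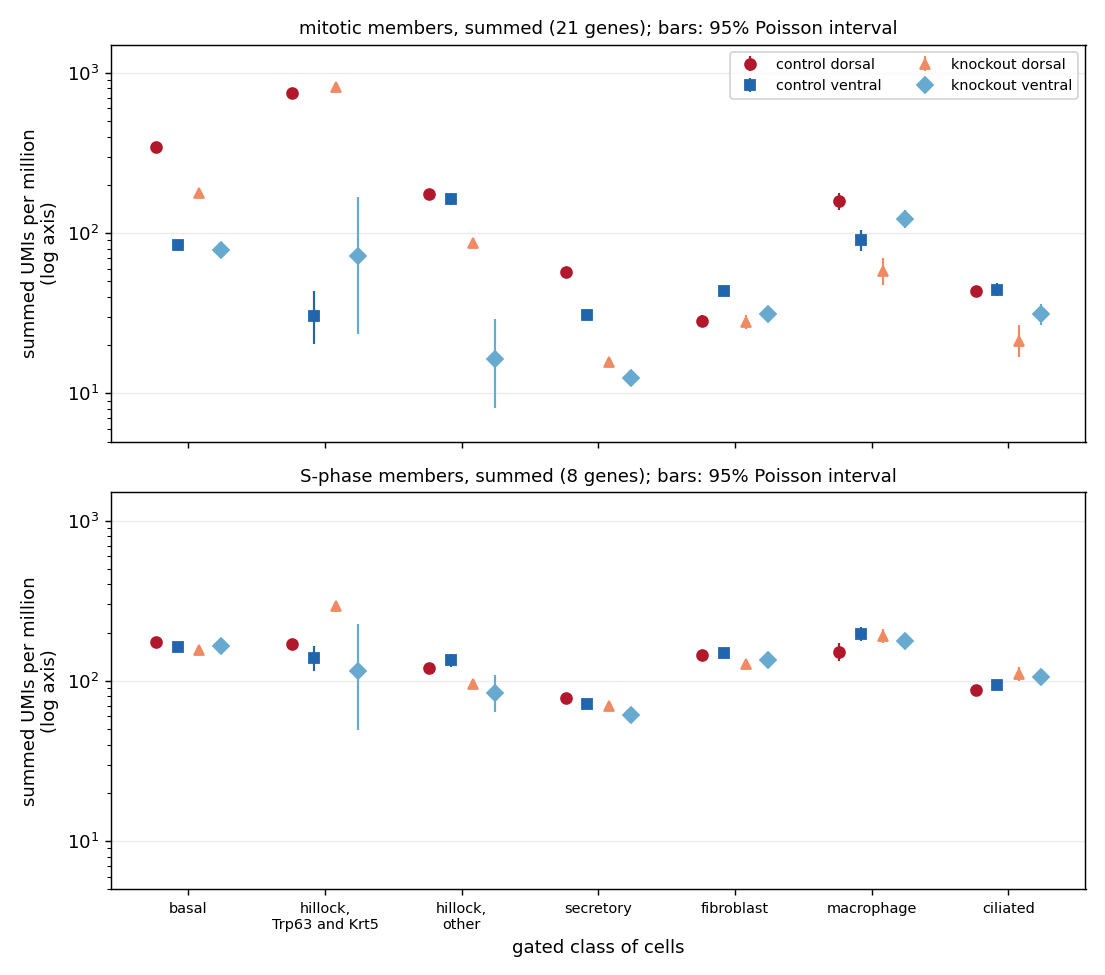
Summed CPM (log axis) of the 21 mitotic members (top) and the 8 S-phase members (bottom) by gated class and library, with 95% Poisson intervals; hillock-gated cells are split by the basal markers Trp63 and Krt5. The mitotic sums span 12.4 to 818 CPM over the classes, and the S-phase sums 61.1 to 293 CPM.

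Secretory-gated cells (Scgb1a1) had mitotic sums of 57.4, 30.8, 15.6 and 12.4 CPM, so the knockout level was 0.272 (0.255 to 0.291) of control dorsally and 0.404 (0.357 to 0.455) ventrally. Dorsally 17 of 31 members were 2-fold lower, against 12.5% of genes, and 0 higher, against 3.25%. Ventrally 10 of 27 were lower, against 5.53%, and 0 higher, against 1.14%. Ube2c was lowest dorsally, at 0.104. In control ventral trachea 1 cell held 511 of the 1090 UMIs, and without it the level was 16.5 CPM. Without the cell with most mitotic UMIs in each library the ventral ratio was 0.546 (0.469 to 0.633), with 6 of 20 members lower, and the dorsal ratio 0.229. In control dorsal trachea 32 of 4266 secretory-gated cells held 81.3% of those UMIs. Positive shares were 1.37%, 1.06%, 0.893% and 0.463%, below the ciliated share in each library at this threshold. Median depths were 26586, 8874, 41898 and 40922 UMIs. With at least 5 mitotic members the numbers were 23 of 2995, 4 of 658, 2 of 1120 and 1 of 432 cells. These shares (0.768%, 0.608%, 0.179% and 0.231%) were above the ciliated ones, with overlapping intervals.

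Fibroblast-gated cells (Col1a2) had mitotic sums of 28.1, 43.5, 28.0 and 31.4 CPM and positive shares of 2.05%, 2.66%, 1.67% and 1.83%, also below the ciliated share in each library. Here 241 of the 1151 mitotic UMIs of control ventral trachea came from 1 cell. Macrophage-gated cells (C1qa), 154 to 211 per library, were at 158, 90.1, 58.2 and 123 CPM. In control dorsal trachea 130 of 241 of those UMIs came from 1 cell, and in knockout ventral trachea 106 of 249. Without the top cell of each library the macrophage levels were 73.1, 84.3, 53.4 and 71.4 CPM, so their order rests on single cells. The macrophage sums also rest in part on 1 gene, Cenpa, at 57.6, 57.9, 17.4 and 31.1 CPM. After thinning, Cenpa was found in 26.9%, 28.3%, 11.4% and 15.8% of macrophage-gated cells, against at most 3.9% of basal-gated cells. Macrophage-gated cells with at least 5 mitotic members numbered 1 of 78, 0 of 113, 0 of 114 and 2 of 120. Cells that met no gate held 43.0% of the mitotic UMIs in control ventral and 40.5% in knockout ventral trachea, against 8.88% and 8.69% dorsally. They were 44.0% and 56.2% of ventral cells, so a large part of the ventral mitotic RNA lay in cells whose class was not assigned.

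The GFP reporter was read in the same basal-gated cells, thinned as above, with 5 or more eGFP UMIs counted as high. In control dorsal trachea 76.3% (67.4 to 83.8) of cells with 2 or more mitotic members were high, against 45.1% (42.7 to 47.4) of the others. In control ventral cells the shares were 52.6% (35.8 to 69.0) and 44.2% (41.2 to 47.2), and in knockout dorsal cells 37.5% (21.1 to 56.3) and 22.3% (19.8 to 25.05). In knockout ventral cells they were 17.6% (3.80 to 43.4) and 18.1% (15.4 to 21.2), from 3 of 17 and 129 of 711 cells. Of cells with 3 or more mitotic members (78, 16, 12 and 6 cells), the high shares were 83.3% (73.2 to 90.8), 37.5% (15.2 to 64.6), 50% (21.1 to 78.9) and 50% (11.8 to 88.2). The control ventral share was thus below the 44.2% of cells with fewer than 2 members, which its interval includes. Fibroblast-gated cells, which do not normally express P63, were high in 1.85% to 2.81%. Krt14, a basal keratin, was at 186 CPM in control dorsal cells with 2 or more mitotic members and at 46.0 CPM in the others. The same pair of values was 428 and 36.2 in control ventral, 32.2 and 3.81 in knockout dorsal, and 365 and 86.0 CPM in knockout ventral cells.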

How the data were processed

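Per the labels' protocols, tracheal cells were dissociated with papain and made into libraries with the 10x Genomics GEM-X 5′ v3 kit. The deposited tables hold raw UMI counts per gene and barcode, made with Cell Ranger 10.0.0 with build GRCm39, as the submitters' processing notes state. No source used here gives the gene annotation or the cell-calling filter.

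A barcode was kept if it had 500 or more genes and no more than 15% of its UMIs were mitochondrial. Scrublet (scanpy 1.11.5) scored doublets, and the highest scores were removed at 0.4% per 1000 barcodes (702, 380, 153 and 181 cells). That fixed rate replaced the automatic threshold (0.223% to 2.08%), which differed between libraries, before any member was read. Gates were Trp63 at least 1 UMI and Krt5 at least 3 (basal), Krt13 and Krt4 at least 2 each (hillock, taken first), Scgb1a1 at least 20 per 10000 UMIs, Col1a2 at least 5 per 10000 and 3 UMIs, C1qa at least 3, and Foxj1 at least 1 with Cfap126 at least 2 (ciliated). Cells meeting several gates were set aside.

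UMIs were summed per class and library. Ratios have conditional binomial, levels exact Poisson, shares Clopper-Pearson and differences Newcombe intervals, all at 95% (scipy 1.17.1). A gene was counted past 2-fold if 1 of the 2 libraries had 20 or more UMIs of it. The script was tested on simulated counts for the control regional comparison. Those counts were drawn independently per gene, so the test does not cover the gathering of mitotic UMIs in few cells. The members and lists, and the rule for genes named (per role the 2 members with most UMIs in basal-gated cells, any on the other side of 1, and the top 3 of each wider list), were chosen with earlier results of these data known; other genes named were picked after their values were seen.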

Additional observations from a re-analysis of the deposited data

Results flagged for a closer look

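These results lay on opposite sides of 1 in the groups set against each other, with intervals that exclude 1. The differences between them were not tested, and most of these values depended on single cells or gates. Mitotic members in dorsal trachea had a knockout over control ratio of 0.518 in basal-gated and 1.18 in hillock-gated cells, and S-phase members 0.892 and 1.38. Hillock-gated cells without basal markers were on the same side as basal-gated cells, at 0.497 and 0.796. Without the top cell of each library their mitotic ratio was 0.227. The basal S-phase value was above 1 under 3 other gates (1.02 to 1.097). In ventral hillock-gated cells, of which the knockout library held 13, the same ratios were 0.16 for mitotic and 0.643 for S-phase members. In control ventral trachea 1 cell held 509 of 579 mitotic UMIs, and without the top cell of each library the mitotic ratio was 0.945 (0.451 to 1.80). In basal-gated cells S-phase members had a dorsal over ventral ratio of 1.08 in controls and 0.947 in knockouts. The latter was above 1 under 4 other settings (1.006 to 1.16), so the opposite sides were not kept there. In macrophage-gated cells the mitotic dorsal over ventral ratio was 1.75 in controls and 0.474 in knockouts, and knockout over control was 0.369 dorsally and 1.36 ventrally. The macrophage values rest on few UMIs (107 to 249 per library), of which Cenpa alone gave 88, 106, 32 and 63. Without the top cell of each library these 4 ratios were 0.867, 0.748, 0.731 and 0.847, all below 1.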

How the results depend on the processing

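The mitotic dorsal over ventral ratio of basal-gated cells stayed above 1 in both genotypes under all settings run, and the mitotic dorsal knockout over control ratio stayed below 1. The cause of each move below was not tested. With median-ratio scaling, mitotic ratios were 2.52 (dorsal over ventral, knockouts) and 0.565 (dorsal knockout over control, with 6 members past 2-fold), and S-phase ratios 1.05 and 0.973. With called doublets kept, mitotic ratios were 3.64 (dorsal over ventral, controls) and 0.807 (ventral knockout over control, 3 members past 2-fold). With gates by any UMI, the mitotic ratios were 5.17 and 3.86 (dorsal over ventral, controls and knockouts) and 0.675 (dorsal knockout over control), S-phase ratios 1.08 (dorsal over ventral, knockouts) and 1.02 (dorsal knockout over control), and the counts past 2-fold 20 (knockout regions), 0 (dorsal genotypes) and 2 (ventral genotypes). With gates on thinned cells, mitotic ratios were 2.91, 3.20, 0.889 and, ventrally between genotypes, 0.810, and S-phase ratios 1.01 (controls), 1.006 (knockouts) and 1.03 (dorsal genotypes). With no minimum of UMIs the ventral genotype count was 2. Without thinning, the share differences were -3.49 points (control regions) and -3.97 points (ventral genotypes). In 3 alternatives chosen after seeing the data, cells with hillock markers stayed in the basal class, Pcna was left out, or the cell with most mitotic UMIs was left out in each library. The first gave mitotic ratios of 5.20, 4.37 and 0.796, S-phase ratios of 1.16 (knockout regions) and 1.097 (dorsal genotypes), share differences of 4.16 and 2.49 points (control and knockout regions), and counts of 20 (knockout regions) and 0 (dorsal genotypes). The second gave S-phase ratios of 1.21, 0.858, 0.811 and 1.14. The third gave mitotic ratios of 4.99, 2.48 and 0.459 (control regions, knockout regions, dorsal genotypes), S-phase ratios of 0.995 (knockout regions) and 0.962 (ventral genotypes), and a ventral genotype count of 0. The other 59 values stayed inside the interval of the reported value or, for counts, within 1.5 times of it, the widest being 8 in place of 12 members past 2-fold (dorsal genotypes, called doublets kept). No paired analysis was possible because each group had 1 library and the groups compared share fewer than 2 replicate numbers. Depth limits members with few UMIs, such as Bub1 with 7 in control ventral basal-gated cells.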
